A study of Mus musculus with 32 samples.

Results

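The 9 genes described here make, load, recover and receive the inhibitory transmitters GABA and glycine. They are Gad1, Gad2, Slc32a1, Slc6a5, Slc6a9, Glra1, Glrb, Gphn and Gabbr1. They were chosen by function, but with earlier results of these data known. Every probe set of the array that carries 1 of these symbols was taken, which gave 16 probe sets of 22626, or 9 genes of 12393. Short-oligonucleotide expression arrays had been hybridised with RNA of 2 brain regions, midbrain and medulla, of mice lacking the cholecystokinin B receptor gene Cckbr and of control mice. Strain, sex and age are not given in the sources used here, nor is the way the gene was inactivated. Each mouse had undergone chronic constriction injury (CCI), a loose ligation of the sciatic nerve that serves as a model of neuropathic pain, or a sham operation. The groups, in each region, were KO CCI, KO sham, control CCI and control sham, with 4 arrays each. That makes 8 groups, 32 arrays and 16 animals, since both regions were taken from every animal.

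GABA is made from glutamate by the glutamate decarboxylases GAD67 (Gad1), which lies throughout the cell, and GAD65 (Gad2), which sits mostly on synaptic vesicles. A single vesicular transporter (Slc32a1, VIAAT) fills vesicles with GABA and glycine alike, whereas the plasma membrane transporter GlyT2 (Slc6a5) marks glycine neurons and GlyT1 (Slc6a9) is carried mainly by astrocytes. Glycine receptors of the adult brain stem are pentamers of an alpha subunit (Glra1) and the beta subunit (Glrb), and beta binds the scaffold protein gephyrin (Gphn), which also anchors GABA-A receptors. Gabbr1 encodes the ligand-binding subunit of the metabotropic GABA-B receptor. Fast inhibition in the hindbrain and spinal cord relies heavily on glycine, and that in the midbrain mainly on GABA.

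The windows around the annotated transcription starts of 4 of these genes are shown because they carry the supply of both transmitters: the 2 synthetic enzymes, the shared vesicular transporter and the glycine neuron transporter. The sequences are from RefSeq on build GRCm38.p6 and hold 250 bases before to 50 bases after the start, 300 in all, on the gene's own strand. Gad1 lies at chr2:70561879-70562178, Gad2 at chr2:22622077-22622376, Slc32a1 at chr2:158610508-158610807 and Slc6a5, for the first of 2 annotated starts, at chr7:49910049-49910348, all on the plus strand. Capitals mark the letters that GATA factors are known to bind, searched on either strand: AGATAA, its variant with a last G (AGATAG), and the same pair with a first T (TGATAA and, with a last G, TGATAG). The motif was searched because Gata2 and Gata3, factors of developing GABA neurons, stand among the measured transcription factors.
Gad1: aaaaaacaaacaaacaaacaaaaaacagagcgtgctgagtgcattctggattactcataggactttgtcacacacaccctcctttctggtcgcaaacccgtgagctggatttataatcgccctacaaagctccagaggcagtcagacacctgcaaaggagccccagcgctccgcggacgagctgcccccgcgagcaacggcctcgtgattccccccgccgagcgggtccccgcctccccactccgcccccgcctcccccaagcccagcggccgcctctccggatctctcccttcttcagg
Gad2: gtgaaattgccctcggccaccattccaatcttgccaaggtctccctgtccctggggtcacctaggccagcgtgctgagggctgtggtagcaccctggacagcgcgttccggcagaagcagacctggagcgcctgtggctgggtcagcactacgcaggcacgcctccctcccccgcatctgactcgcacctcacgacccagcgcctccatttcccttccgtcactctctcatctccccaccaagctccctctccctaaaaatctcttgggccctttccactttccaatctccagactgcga
Slc32a1: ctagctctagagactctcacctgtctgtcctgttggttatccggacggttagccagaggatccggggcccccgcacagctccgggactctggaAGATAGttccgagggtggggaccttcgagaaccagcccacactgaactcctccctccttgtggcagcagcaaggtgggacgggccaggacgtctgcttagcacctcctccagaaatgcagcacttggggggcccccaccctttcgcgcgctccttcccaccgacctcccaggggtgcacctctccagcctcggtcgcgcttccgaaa
Slc6a5: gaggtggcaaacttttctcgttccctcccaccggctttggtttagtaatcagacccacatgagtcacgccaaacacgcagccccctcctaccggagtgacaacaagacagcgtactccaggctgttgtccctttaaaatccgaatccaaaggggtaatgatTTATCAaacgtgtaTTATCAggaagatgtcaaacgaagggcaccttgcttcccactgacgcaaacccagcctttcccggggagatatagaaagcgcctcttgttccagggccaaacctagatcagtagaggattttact
Windows were held for 8 of the 9 genes, 11 in all, and 2 of them had a match: 1 in Slc32a1 and 2 in the first window of Slc6a5. Of 32851 promoter windows of this length 29.8% held at least 1 match. The windows of Gad1 and Gad2 held none. The GC content of the Gad1 window was 60%, that of Gad2 61.3%, that of Slc32a1 63.3% and that of this Slc6a5 window 49.7%, against a median of 52.7% over all windows. A match describes the letters of these windows only.

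Intensities are given as deposited, in array units, where they can be compared between arrays but not between probe sets. Differences are on the log2 scale after 16 was added to each intensity and the arrays were quantile normalized, so those of dim probe sets are understated. Tests are limma's, two-sided, adjusted over all 22626 probe sets, and an adjusted p under 0.05 passed the threshold. A group whose mean was under 30 units is called near background and gets no fold. Array medians lay between 91.1 and 100, and the number of arrays, 4 a group, limits the precision. The targeted gene behaved as the labels state: Cckbr was lower in KO than in control mice by a log2 difference of -2.91 in midbrain and -2.66 in medulla. Region labels were borne out too, with 8 of 9 midbrain markers higher in midbrain and 11 of 15 Hox genes, which mark the hindbrain, lower there. In tissue RNA, fewer cells of a type and less RNA per cell cannot be told apart.

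Some arrays stood apart. KO sham midbrain 2 had the highest 3′ to 5′ log2 ratio of the Actb control probe sets, 1.6 against at most 0.775 elsewhere, and it was the lowest of the midbrain arrays on 7 of the 16 probe sets described here. KO sham midbrain 4 had 5210 units of Ttr, a choroid plexus gene, against at most 2220 in the other midbrain arrays, and it holds the highest Gad2 value and 1 of the lowest Glra1 values. KO sham medulla 3 had a Gabra6 intensity of 1080, against at most 284 in the other medulla arrays; Gabra6 marks cerebellar granule cells. In medulla, Ttr had 1480 units in KO CCI medulla 1 and 936 in control sham medulla 4, while it had at least 6900 in the other medulla arrays. Some of the results that rest on these arrays are given with and without them.

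**Figure D1:**
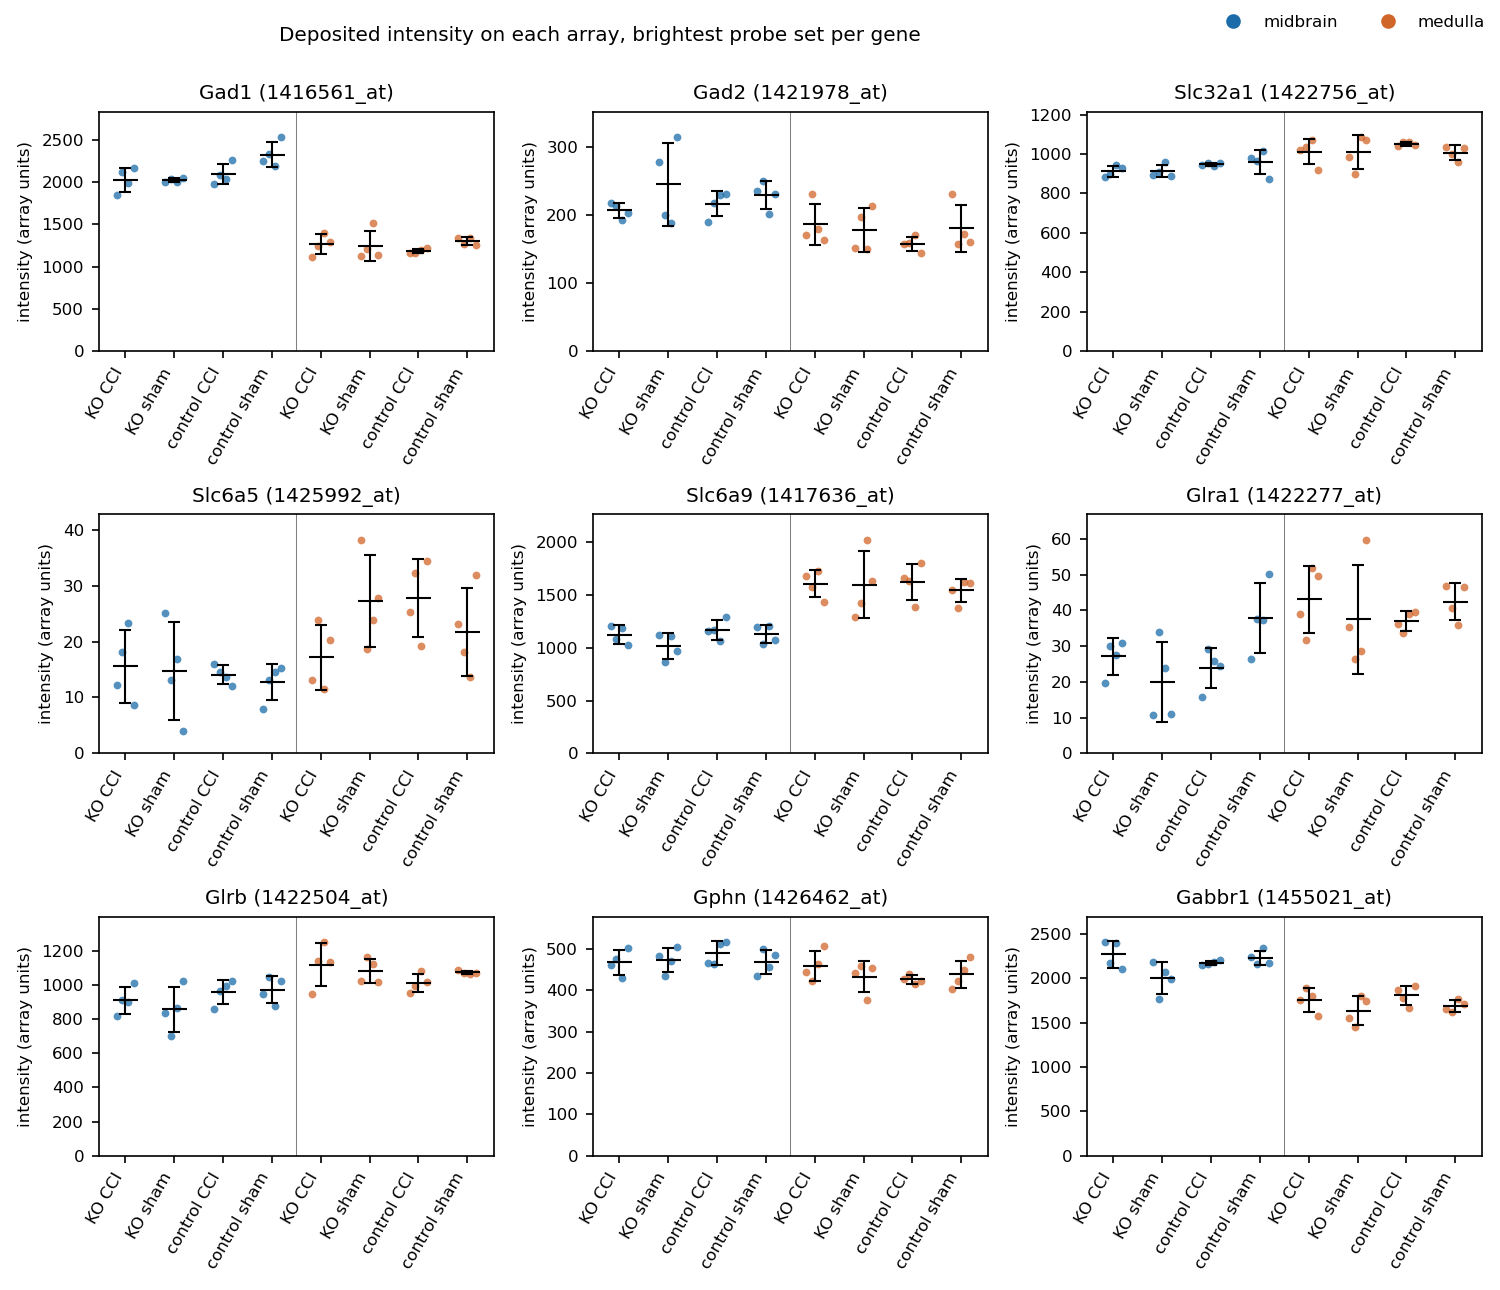
Deposited intensity (array units, axes from 0) of the brightest probe set of each gene on every array, midbrain groups in blue to the left of the line and medulla groups in orange to the right. Points are arrays, and bars are group means ± SD (n = 4). The midbrain and medulla points of Gad1 and of Slc6a9 do not overlap, as for 1.45% of all probe sets, whereas within a region the groups overlap for most genes.

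Region was the comparison in which these genes differed. Both GABA-synthesising enzymes and the GABA-B receptor subunit were higher in midbrain than in medulla, and the glycine transporters, the glycine receptor subunits and the vesicular transporter were lower. Of the 16 probe sets 12 passed the threshold, 6 higher and 6 lower in midbrain, while 21.5% of all probe sets did so. The brightest probe set passed for all 9 genes. The median absolute difference of the 16 probe sets was 0.28 on the log2 scale, against 0.09 over all probe sets, and the median signed difference was 0.04 against 0.01. Because the genes were chosen with earlier results of these data known, these shares and medians are descriptions only.

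**Figure D2:**
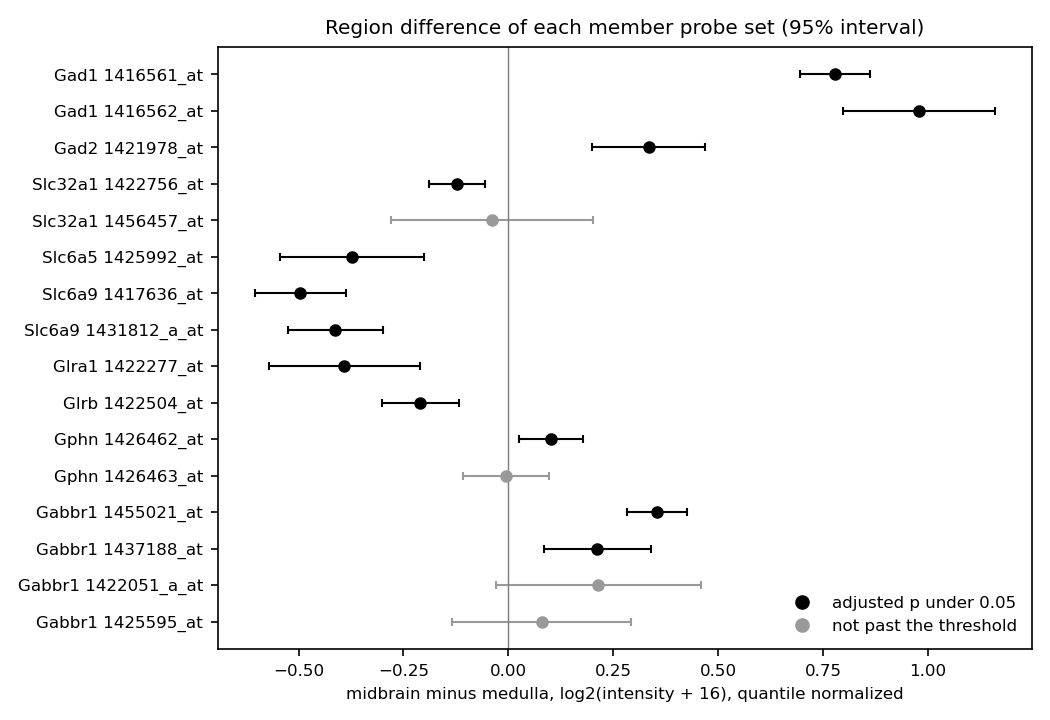
Difference between midbrain and medulla, averaged over the 4 animal groups, for each of the 16 probe sets (x axis, midbrain minus medulla, log2 of intensity plus 16, quantile normalized). Points are limma estimates with 95% intervals and black points passed an adjusted p of 0.05. The estimates of Gad1, Gad2 and Gabbr1 lie to the right of 0 and those of Slc6a5, Slc6a9, Glra1 and Glrb to the left.

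Gad1 showed the clearest separation. Probe set 1416561_at had 1847 to 2529 units in the midbrain arrays (median 2067, n = 16) and 1115 to 1510 units in the medulla arrays (median 1232, n = 16). Every midbrain array was above every medulla array. Of the 16 probe sets 1 was wholly higher and 2 were wholly lower in midbrain in deposited intensity. Of all probe sets 1.45% did not overlap between regions. The Gad1 level was 1.72-fold higher in midbrain (log2 difference 0.78, SE 0.04, adjusted p = 1.27e-14). The second Gad1 probe set, 1416562_at, had 430 to 1202 units in midbrain (median 1045) and 290 to 607 units in medulla (median 494). It overlapped between regions only through KO sham midbrain 2, the array of high Actb ratio, whose next-lowest midbrain neighbour had 822 units. Its log2 difference was 0.98 (SE 0.09, adjusted p = 1.52e-09), or 1.97-fold. The Gad1 difference of 1416561_at was 0.80 without KO sham medulla 3, the array of high Gabra6.

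By group, Gad1 (1416561_at) averaged 2029 ± 144 units in KO CCI midbrain, 2021 ± 21.8 in KO sham midbrain, 2092 ± 118 in control CCI midbrain and 2326 ± 148 in control sham midbrain (SD, n = 4 each). In medulla the arrays had 1115 to 1400 units in KO CCI, 1129 to 1510 in KO sham, 1164 to 1218 in control CCI and 1254 to 1343 in control sham mice. The order of the 8 groups therefore split by region first. Neighbours in the order of means within a region overlapped. Beyond neighbours, the control sham midbrain arrays, with 2245, 2337, 2194 and 2529 units, stood above those of KO CCI and of KO sham midbrain, and the control CCI medulla arrays stood below those of control sham medulla. None of these contrasts passed the threshold where it was tested. Of all probe sets 3.14% did not overlap between KO sham and control sham midbrain, and 2.11% between control CCI and control sham medulla.

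Gad2, the vesicle-associated decarboxylase, differed in the same direction as Gad1 but less. It had 188 to 314 units in midbrain (median 218) and 145 to 231 units in medulla (median 166), so the regions overlapped. The log2 difference was 0.33 (SE 0.07, adjusted p = 0.000334), a 1.26-fold higher level in midbrain, and it was 0.31 without KO sham midbrain 4 (adjusted p = 0.000606). Within an animal, with arrays paired by array number, Gad2 was higher in midbrain in 14 of 16 animals. Gad1 was higher in 16 of 16 on both probe sets.

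Slc32a1, the transporter that loads both transmitters, differed little between regions, and in the direction opposite to the enzymes. Probe set 1422756_at had 875 to 1014 units in midbrain (median 941) and 897 to 1084 units in medulla (median 1035). The ranges overlapped over most of their width, and the log2 difference was -0.12 (SE 0.03, adjusted p = 0.00698), or 1.09-fold lower in midbrain. It was lower in midbrain in 14 of 16 animals. The dim probe set 1456457_at had medians of 43.9 units in midbrain and 43.5 in medulla and did not pass (log2 difference -0.04, 95% interval -0.28 to 0.20, adjusted p = 0.868). Without the 2 animals of low medullary Ttr the Slc32a1 difference of 1422756_at was -0.10 and missed the threshold (adjusted p = 0.0532).

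Slc6a9, the glycine transporter of astrocytes, was lower in midbrain on both of its probe sets. Probe set 1417636_at had 863 to 1295 units in midbrain (median 1116) and 1295 to 2023 units in medulla (median 1619). The highest midbrain array, control CCI midbrain 4, lay just under the lowest medulla array, KO sham medulla 1, so the regions did not overlap. Of all probe sets 1.45% did not overlap between regions either. The log2 difference was -0.50 (SE 0.05, adjusted p = 3.39e-08), or 1.41-fold lower in midbrain. Probe set 1431812_a_at had 197 to 360 units in midbrain and 386 to 525 units in medulla, with a log2 difference of -0.41 (SE 0.06, adjusted p = 1.78e-06). Both were lower in midbrain in 16 of 16 animals.

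The highest medullary Slc6a9 value, 2023 units, was that of KO sham medulla 3, and without that array the log2 difference was -0.47 (adjusted p = 1.26e-08). Astrocyte markers moved the same way, with 6 of 9 lower and 1 higher in midbrain. Their summed intensity was 12804 to 13744 units in midbrain and 14452 to 17137 units in medulla. The part of astrocyte RNA in the Slc6a9 difference was not tested.

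Slc6a5, the transporter of glycine neurons, was near background in all 8 groups on its single probe set. It had 4.1 to 25.1 units in midbrain (median 14.1) and 11.6 to 38.2 units in medulla (median 23.6). The regions overlapped, yet 15 of 16 animals had less in midbrain, and the log2 difference of -0.37 (SE 0.08) passed the threshold (adjusted p = 0.00135). No fold is given at this brightness.

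Glra1, the alpha subunit of the adult glycine receptor, was dim as well. It had 10.7 to 50.1 units in midbrain (median 27.0) and 26.4 to 59.8 units in medulla (median 39.1). Midbrain was lower in 14 of 16 animals, with a log2 difference of -0.39 (SE 0.09, adjusted p = 0.00143). The mean was near background in KO CCI, KO sham and control CCI midbrain, and it was 37.9 ± 9.69 units in control sham midbrain and 37.1 to 43.1 units in the 4 medulla groups.

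Glrb, the beta subunit, had 702 to 1046 units in midbrain (median 928) and 948 to 1249 units in medulla (median 1071). It was 1.16-fold lower in midbrain (log2 difference -0.21, SE 0.04, adjusted p = 0.00077), in 14 of 16 animals, with overlapping ranges. Both measured subunits of the receptor were thus lower in midbrain, the dim Glra1 and the bright Glrb.

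Gphn, the scaffold that binds Glrb, did not follow the receptor. Probe set 1426462_at had 429 to 516 units in midbrain (median 474) and 376 to 508 units in medulla (median 442), a log2 difference of 0.10 (SE 0.04) that passed narrowly (adjusted p = 0.0469). Leaving out 1 array at a time lost this call in 20 of 32 cases. Probe set 1426463_at did not pass, at -0.01 (95% interval -0.11 to 0.10, adjusted p = 0.961).

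Gabbr1, the ligand-binding GABA-B subunit, was higher in midbrain on its 2 brightest probe sets. Probe set 1455021_at had 1764 to 2404 units in midbrain (median 2171) and 1444 to 1908 units in medulla (median 1744). Only KO sham midbrain 2, at 1764 units, lay within the medulla range, and all 16 animals had more in midbrain. The log2 difference was 0.36 (SE 0.03, adjusted p = 7.68e-09), or 1.28-fold. Probe set 1437188_at had 544 to 837 units in midbrain and 442 to 725 units in medulla (log2 difference 0.21, SE 0.06, adjusted p = 0.0136). Probe set 1422051_a_at, at 0.21, did not pass (adjusted p = 0.227), nor did 1425595_at, which was near background in 7 of 8 groups (adjusted p = 0.667).

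**Figure D3:**
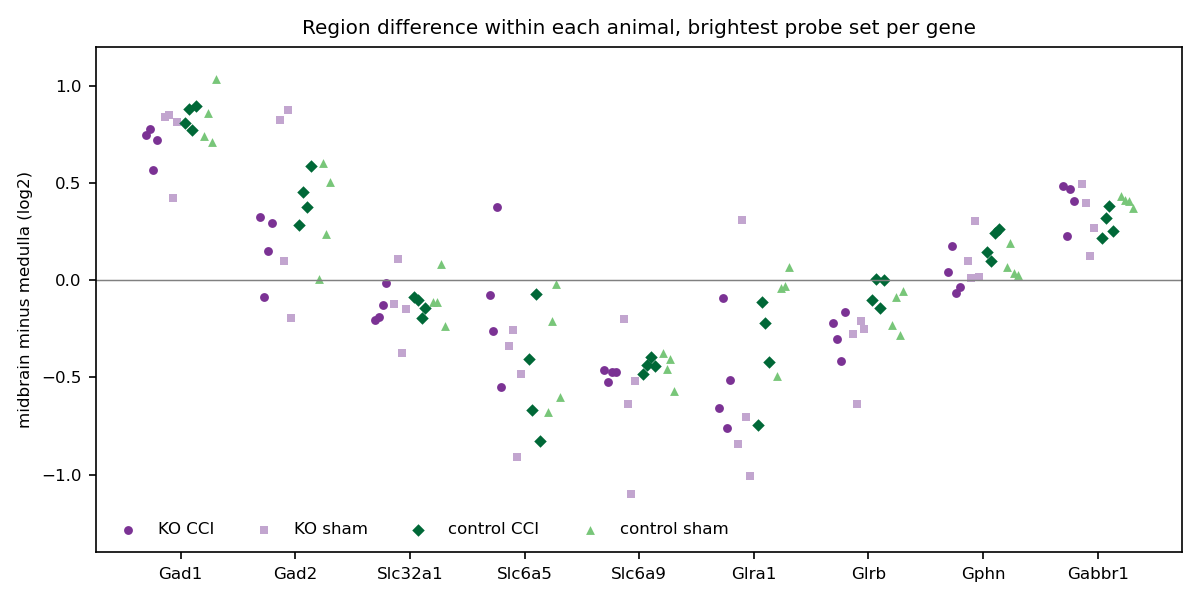
Midbrain minus medulla within each animal (y axis, log2 of intensity plus 16, quantile normalized) for the brightest probe set of each gene, with 1 point per animal and 4 animals in each of the groups KO CCI, KO sham, control CCI and control sham. All 16 points of Gad1 and Gabbr1 lie above 0 and all 16 of Slc6a9 below it. For Gad2, Slc32a1, Glra1 and Glrb 14 of 16 lie on the same side. Arrays were paired by array number.

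A code in the array descriptions, which may mark a batch, was shared by both regions of an animal, so the region difference could be read within the 2 codes that held several animals, a lower one with 7 and a higher one with 8. Control sham 1 had a code of its own and is in neither fit. For Gad1 (1416561_at) it was 0.83 within the lower code and 0.74 within the higher, and for Gabbr1 (1455021_at) 0.37 and 0.34, all past the threshold. For Slc6a9 (1417636_at) it was -0.46 and -0.55, past the threshold in both. Gad2 had 0.39 (adjusted p = 0.0573) within the lower code and 0.36 (adjusted p = 0.0466) within the higher, and Glra1 -0.28 (adjusted p = 0.413) and -0.45 (adjusted p = 0.0205). Slc32a1 (1422756_at), Slc6a5, Glrb, Gphn (1426462_at) and Gabbr1 (1437188_at) kept their direction but missed the threshold within either code, where at most 8 arrays a region remained. Counts of calls within a code thus fell to 4 probe sets in the lower and 7 in the higher, of the 16.

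**Figure D4:**
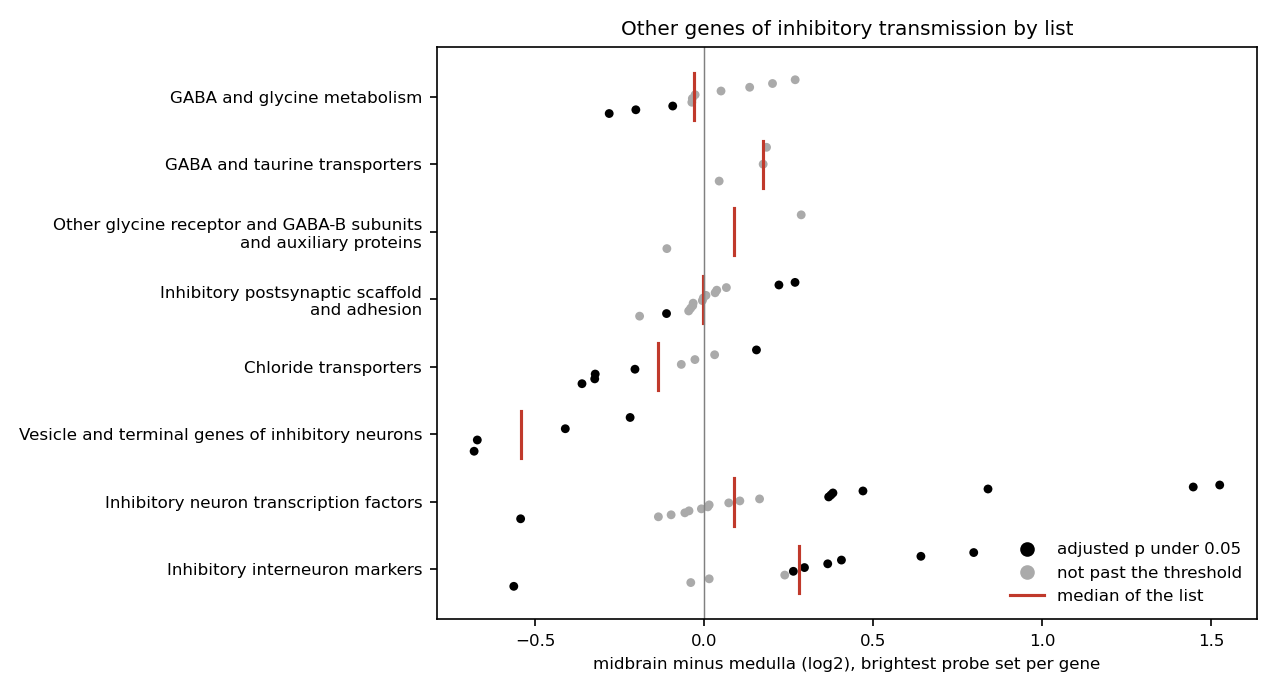
Region difference (x axis, midbrain minus medulla, log2 of intensity plus 16, quantile normalized) of the brightest probe set of the measured genes in 8 lists around inhibitory transmission, 1 row per list. Points are genes, black where the adjusted p was under 0.05 and grey otherwise, and red lines are list medians. Gata3, Tal1 and Tfap2b (near background in medulla) lie farthest to the right, and all 4 vesicle and terminal genes lie to the left of 0.

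Other genes of inhibitory transmission were counted by list, on the brightest probe set, where counts of calls are to be read against the 21.5% of all probe sets called. The lists, too, were chosen with earlier results of these data known. Among 18 transcription factors of inhibitory neurons 7 were higher and 1 lower in midbrain, with a list median of 0.09 against 0.01 over all probe sets. Gata3 averaged 142 ± 19.4 units in midbrain and 40.1 ± 14.1 in medulla (SD, n = 16 each), a log2 difference of 1.52 (adjusted p = 2.49e-12). Tal1, its partner in GABA neuron specification, averaged 141 ± 18.4 units in midbrain and 42.2 ± 10.7 in medulla, a log2 difference of 1.45 (adjusted p = 5.84e-14). Tfap2b differed by 0.84, Sox21 by 0.47, Lhx1 by 0.38, Gata2 by 0.37 and Sox14 by 0.37. Tfap2b, at 28.7 units, and Sox21, at 26.5 units, were near background in medulla. Meis2 was the 1 factor lower in midbrain, by -0.54 on the log2 scale (adjusted p = 1.23e-07).

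Of 10 interneuron markers 6 were higher and 1 lower in midbrain, with a median of 0.28. The neuropeptide genes Cck, at 0.80 (adjusted p = 6.34e-09), Tac1, at 0.64, Npy, at 0.41, and Vip, at 0.26, were among the higher ones, with Nos1 at 0.36 and Calb2 at 0.30. Pvalb, which encodes the calcium buffer parvalbumin of fast-spiking neurons, was lower by -0.56 (adjusted p = 7.47e-13). In these regions several of these markers are also made by excitatory or dopamine neurons. All 4 measured genes of the vesicle and terminal list were lower in midbrain: Cbln1 by -0.68, Syt2 by -0.67, Vamp1 by -0.41 and Cplx1 by -0.22. These 4 are not limited to inhibitory terminals, and Cbln1 is abundant in cerebellar granule cells.

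Among 8 chloride transporters and their kinases 1 was higher and 4 were lower in midbrain (median -0.14). Slc12a5, the KCC2 exporter that keeps neuronal chloride low, averaged 3398 ± 195 units in midbrain and 3065 ± 262 in medulla, a log2 difference of 0.15 (adjusted p = 0.00633). Slc12a2, the NKCC1 importer, averaged 1241 ± 69.1 units in midbrain and 1581 ± 124 in medulla, a difference of -0.32 (adjusted p = 8.98e-08). The kinases that activate NKCC1 were lower too: Oxsr1 by -0.36, Stk39 by -0.32 and Wnk1 by -0.21. The exporter and the importer thus differed in opposite directions in tissue RNA, which does not separate neurons from other cells. The part of other cells was not tested.

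Of 10 genes of GABA and glycine metabolism 3 passed the threshold, all lower in midbrain, and 7 did not. The 3 were the serine synthesis enzyme Psat1, by -0.28 (adjusted p = 5.48e-06), and the glycine cleavage proteins Dld, by -0.20, and Gcsh, by -0.09. Of 14 postsynaptic scaffold and adhesion genes 2 were higher, Dmd by 0.27 and the inhibitory synapse adhesion gene Nlgn2 by 0.22, and 1 was lower, Pfn2 by -0.11, a share of calls near that of all probe sets. None of 3 GABA and taurine transporters passed, and none of 2 further glycine receptor subunits. Of these, Slc6a12, Slc6a13, Glra3 and Glra4 averaged under 30 units in both regions, so their missed threshold says little about a regional difference. Slc6a6 averaged 135 units in midbrain and 131 in medulla.

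Markers of other cells moved between regions as well. Choroid plexus markers were lower in midbrain for 4 of 4, with a summed intensity of 228 to 5292 units in midbrain and 986 to 10378 in medulla. Cerebellar markers were lower for 3 of 6, summing to 1302 to 2544 units in midbrain and 1419 to 6968 in medulla. Oligodendrocyte markers were lower for 4 of 6 (18813 to 21424 units in midbrain and 20850 to 23979 in medulla). Pan-neuronal markers were lower for 6 of 10 and higher for 1, summing to 17658 to 24045 units in midbrain and 24903 to 28846 in medulla. Microglia markers gave 0 of 6 calls in limma (lowest adjusted p 0.524), with sums of 1731 to 2301 units in midbrain and 1777 to 2279 in medulla. The 1 measured glutamatergic marker, the vesicular glutamate transporter Slc17a6, was higher in midbrain, as the decarboxylases were, with 1776 to 2150 units in midbrain and 1374 to 1710 in medulla (log2 difference 0.33, adjusted p = 3.26e-09). None of these cell type lists summed to 0 on any array, and the part of these cells in the region differences was not tested.

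Genotype and injury gave no call for these genes. In the 14 comparisons other than region, 0 of 224 results passed in limma, the lowest adjusted p was 0.498, and 19 results (8.48%) had an unadjusted p under 0.05. Over all probe sets the share at an unadjusted p under 0.05 was 2.16% to 8.47%, depending on the comparison. The 8.48% pools all 14 comparisons, so it lay just above the highest of these single shares and is not a like measure. The 224 results also share arrays and genes and are not independent. Shares for each comparison are given below. The estimates of KO minus control mice and of CCI minus sham mice therefore stand as values with their intervals, and a missed threshold does not show that the groups were alike.

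In midbrain, genotype averaged over operation gave 0 calls among the 16 probe sets, where 0.0309% of all were called. At an unadjusted p under 0.05 there were 3 of the 16 and 7.49% of all. Genotype in CCI mice gave 0 calls (0.00884% of all), with 1 of the 16 and 4.96% of all unadjusted. Genotype in sham mice gave 0 calls (0.0133% of all), with 3 of the 16 and 8.47% of all unadjusted. CCI in KO mice gave 0 calls (0% of all), with 3 of the 16 and 8.23% of all unadjusted. CCI in control mice gave 0 calls (0% of all), with 0 of the 16 and 3% of all unadjusted. The genotype by CCI interaction gave 0 calls (0% of all), with 2 of the 16 and 5.48% of all unadjusted.

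In medulla, genotype averaged over operation gave 0 calls among the 16 (0.053% of all), with 0 of the 16 and 3.36% of all at an unadjusted p under 0.05. Genotype in CCI mice gave 0 calls (0.00442% of all), with 2 of the 16 and 2.44% of all unadjusted, and genotype in sham mice 0 calls (0.0133% of all), with 0 of the 16 and 3.81% of all. CCI in KO mice gave 0 calls (0% of all), with 0 of the 16 and 4.24% of all unadjusted, and CCI in control mice 0 calls (0% of all), with 1 of the 16 and 2.8% of all. The interaction gave 0 calls (0% of all), with 2 of the 16 and 2.67% of all unadjusted. Whether the region difference varied with genotype gave 0 calls (0% of all), with 2 of the 16 and 3.8% of all unadjusted, and whether it varied with CCI 0 calls (0% of all), with 0 of the 16 and 2.16% of all. The 2 for genotype were Gabbr1 (1425595_at), at 0.67 (limma unadjusted p = 0.00325), and Glrb, at -0.20 (limma unadjusted p = 0.0341). The Gabbr1 value was the estimate farthest from 0 outside the region comparison, on a probe set mostly near background.

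**Figure D5:**
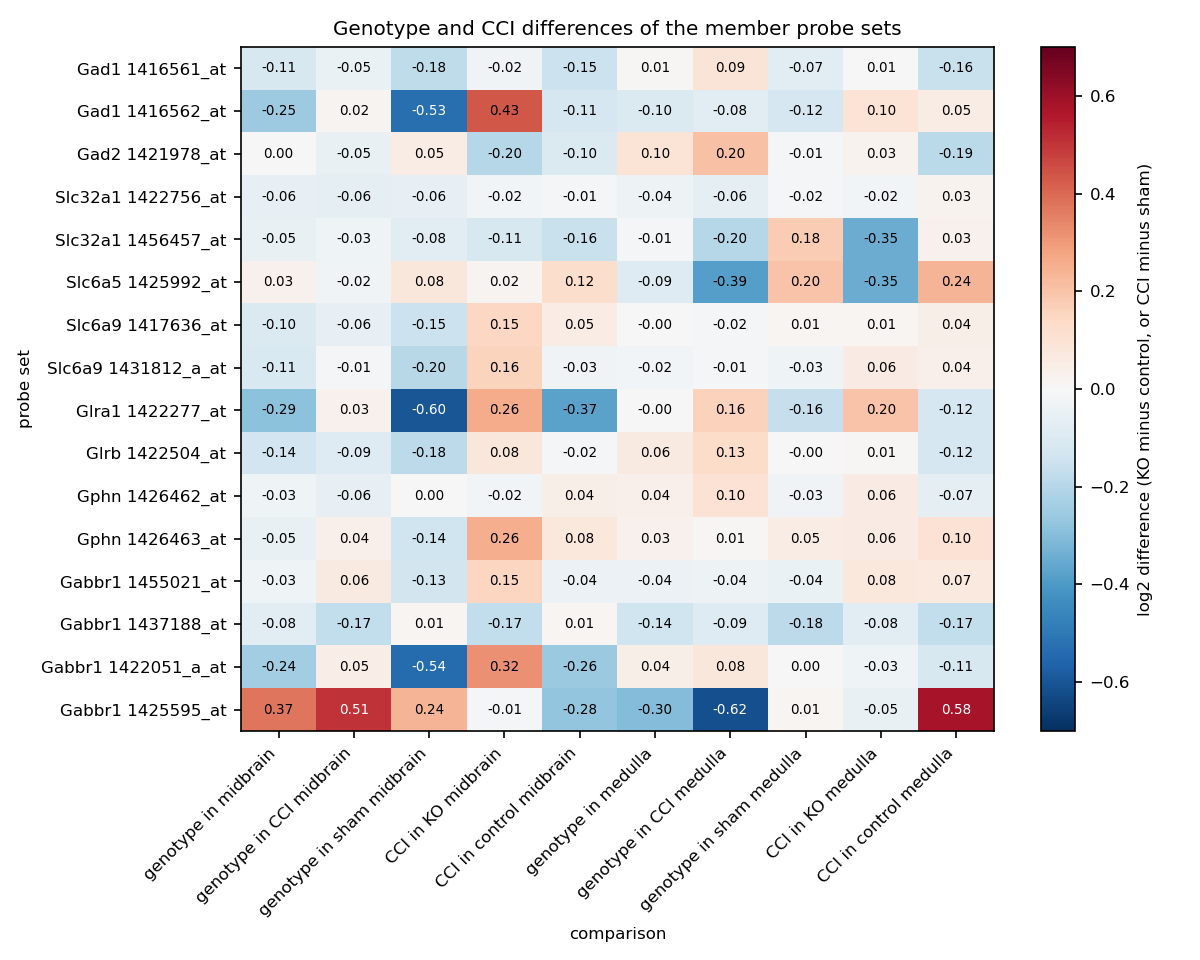
Log2 differences (numbers in the cells and colour scale) of the 16 probe sets in 10 comparisons, KO minus control for genotype and CCI minus sham for CCI, midbrain comparisons to the left of medulla comparisons. None passed an adjusted p of 0.05, and the values farthest from 0 are those of Gabbr1 (1425595_at) for genotype in CCI medulla, at -0.62, and of Glra1 for genotype in sham midbrain, at -0.60.

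Gad1 in the midbrain of sham mice illustrates the size of these differences. Probe set 1416561_at had 2002, 2034, 2003 and 2044 units in KO sham midbrain, against 2245, 2337, 2194 and 2529 units in control sham midbrain. All 4 KO arrays were below all 4 control arrays in deposited intensity, where 3.14% of all probe sets did not overlap either, and the groups overlapped after normalization. The log2 difference of -0.18 (SE 0.07) did not pass (unadjusted p = 0.0294, adjusted p = 0.562). In CCI mice the same probe set had 1847, 2120, 1984 and 2164 units in KO midbrain, against 1983, 2089, 2039 and 2257 in control midbrain. There the groups overlapped, at -0.05 (95% interval -0.20 to 0.11).

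The other Gad1 probe set, 1416562_at, had 1045, 430, 913 and 822 units in KO sham midbrain, against 1018, 1074, 1202 and 1146 in control sham midbrain. The log2 difference was -0.53 (SE 0.18, adjusted p = 0.518), and it was -0.28 without KO sham midbrain 2 (adjusted p = 0.576), the array of high Actb ratio. For CCI against sham in KO midbrain it was 0.43 (SE 0.18, adjusted p = 0.601), with 1116, 1008, 1069 and 982 units in KO CCI midbrain, and 0.19 without that array (adjusted p = 0.815). Both values were smaller without the array of 430 units, and the part of RNA quality was not tested.

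Glra1 had the genotype estimate farthest from 0 in sham midbrain. It had 10.7, 34.0, 24.0 and 11.0 units in KO sham midbrain, against 26.4, 37.7, 37.3 and 50.1 units in control sham midbrain. The groups overlapped, the KO mean was near background, and the log2 difference of -0.60 (SE 0.19) did not pass (unadjusted p = 0.00605, adjusted p = 0.498). Without KO sham midbrain 4 it was -0.51 (adjusted p = 0.469), and without KO sham midbrain 2 it was -0.79 (adjusted p = 0.211). In CCI midbrain the difference was 0.03 (95% interval -0.37 to 0.43), and the interaction of 0.63 did not pass either (adjusted p = 0.822).

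Slc6a5 gave the largest such estimate among the brightest probe sets in medulla. In KO CCI medulla it had 13.1, 23.9, 11.6 and 20.2 units, against 25.2, 32.3, 19.2 and 34.4 units in control CCI medulla. The groups overlapped near background, and the log2 difference of -0.39 (SE 0.17) did not pass (unadjusted p = 0.0374, adjusted p = 1). In sham medulla the sign was the opposite, at 0.20 (95% interval -0.16 to 0.56).

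The dimmer Gabbr1 probe sets gave estimates of similar size. Probe set 1425595_at had 21.4, 22.0, 12.8 and 3.3 units in KO CCI medulla, against 21.0, 38.02, 32.9 and 30.7 units in control CCI medulla. The KO mean was near background and the control mean just above that limit. The log2 difference of -0.62 (SE 0.21) did not pass (unadjusted p = 0.00957, adjusted p = 1). Probe set 1422051_a_at had 194, 76.7, 196 and 170 units in KO sham midbrain, against 425, 209, 190 and 154 units in control sham midbrain, a log2 difference of -0.54 (adjusted p = 0.606). It was -0.28 without KO sham midbrain 2 and -0.25 without control sham midbrain 1, so each of these 2 arrays moved it. On the brightest probe set, 1455021_at, the Gabbr1 difference in sham midbrain was -0.13.

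The other lists gave no call either. In each of the 14 comparisons 0 of 69 measured genes of the 8 lists passed in limma, and the lowest adjusted p was 0.427.

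Relations between members across the arrays of a region were examined for 3 pairs in each region, 6 relations of 16 arrays. None passed after adjustment over the 6 on normalized levels, which keep the differences between group means. Gad2 and Slc32a1 in midbrain had r = -0.563 (permutation p = 0.0216, adjusted p = 0.13) and rho = -0.447 (permutation p = 0.0834, adjusted p = 0.5). Without the 2 arrays farthest from the median of Gad2, r was -0.227, so this r of levels rests largely on those arrays. They were KO sham midbrain 1 and KO sham midbrain 4, the latter being the array of high Ttr. With residuals from group means in place of levels this gene pair passed (r = -0.787, permutation p = 0.00017, adjusted p = 0.00102), so the call depends on whether group means are removed. The residuals were shuffled over all 16 arrays, which ignores their centring within groups, so this permutation p tends to be too small. Without the 2 arrays farthest from the median of the Gad2 residuals, r of residuals was -0.664. Within the lower array code r of levels was -0.26 (7 arrays) and within the higher -0.895 (8 arrays). In medulla the same pair had r = 0.0451 (permutation p = 0.872, adjusted p = 0.872) and rho = 0.0529 (permutation p = 0.848, adjusted p = 0.848). Gad1 and Gad2, the enzymes of the same reaction, had r = 0.165 in midbrain (permutation p = 0.537, adjusted p = 0.87) and r = 0.0943 in medulla (permutation p = 0.725, adjusted p = 0.87). Slc6a5 and Glra1 had r = -0.113 in midbrain (permutation p = 0.679, adjusted p = 0.87) and r = -0.135 in medulla (permutation p = 0.618, adjusted p = 0.87).

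The genes whose 8 group means ran closest to those of a member were found among 12384 genes, by the root mean square distance of centred log2 means. For Gad1 they were Ahi1 at 0.071, Stx1a at 0.0759 and Npnt at 0.0767, against a Gad1 range of 0.99 over the groups. For Gad2 they were Acsl4 at 0.044, Tmem51 at 0.0469 and Cgref1 at 0.0476. For Slc6a9 they were Sypl at 0.0379, Anxa5 at 0.0401 and the neurofilament gene Nefm at 0.0413. For Gabbr1 they were Tusc3 at 0.0373, Pla2g15 at 0.0386 and Vstm2b at 0.0398. The distances are a description over 8 means of 4 arrays each.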

How the data were processed

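Per the labels' protocols, total RNA was extracted with Trizol and made into biotinylated cRNA for Affymetrix arrays. The authors deposited 1 intensity per probe set and array, which by its values is on a linear scale with 2.15% of values at or below 0; the software and scaling behind these intensities are not given in the sources used here, and replicates were not pooled. Columns left unused numbered 0. Negative intensities were replaced by 0, the log2 of intensity plus 16 was taken, and quantile normalization over the 32 arrays followed. The 64 AFFX control probe sets were left out and 22626 were tested without a brightness filter, of which 20380 carried 1 symbol, 691 several and 1555 none.

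Models with a mean for each group were fitted with limma 3.58.1 in R 4.3.3 (lmFit, contrasts.fit, eBayes), on the 16 arrays of a region or, for comparisons involving region, on all 32. P-values were adjusted by Benjamini and Hochberg within each of 15 comparisons. The fit was tested on simulated data for the genotype comparison in medulla only. That simulation did not cover the region comparison or the pairing of arrays within an animal. All probe sets of a member were reported; the one of highest mean stood for the gene. Listed genes past the threshold were named. The members and lists were chosen with earlier results of these data known.

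The design states that both regions came from each animal, and array numbers place the 2 arrays. Their residuals from group means had a mean correlation of 0.171 (over 0.1 in 10 of 16 pairs). The mean of -0.0567 for other pairs follows largely from centring on group means and is not a separate comparison. Titles give another match than array numbers for KO sham 3 and 4. Counts within animals follow the array numbers, and that of Gad2 would change with the titles. Replicates are separate animals per the labels. Alternatives were normalization, pseudocount, brightness filter, variance model, array weights, blocks, array codes, 1 probe set per gene and omitted arrays.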

Additional observations from a re-analysis of the deposited data

Results flagged for a closer look

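Each of the 16 probe sets was examined in each of the 8 groups for 1 array far from the other 3, by Dixon's test on deposited intensities. Of 128 such tests 2 passed, and chance alone gives about 1 in 20. In control CCI midbrain, replicate 1 had 387.2 units on Gphn probe set 1426463_at, below the 402.2 to 403.4 units of the other 3, which lay unusually close together. In control sham medulla, replicate 1 had 249.1 units on Gabbr1 probe set 1422051_a_at, above the 138.5 to 146.4 units of the other 3. Neither probe set passed the region comparison.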

How the results depend on the processing

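Of the 16 probe sets 12 passed between regions in the main fit, which did not pair the 2 arrays of an animal. With the animal as a random replicate block, the paired fit, 12 also passed (consensus correlation of the 2 arrays 0.241). With the title number as a replicate block 12 passed too, but that block joins arrays of all groups and does not pair animals. Without 1 array in turn the count was 11 to 12. It fell to 4 within the lower array code and 7 within the higher, where the fits held fewer arrays. The other 14 comparisons kept a count of 0 in every alternative run, and none of 7156 alternative values for single probe sets changed sign past the threshold or gained a call. Among the 6 relations between members, 0 passed with normalized levels and 1 passed with residuals from group means: Gad2 with Slc32a1 in midbrain, r = -0.787 (permutation adjusted p = 0.00102). That r was -0.319 with median centring of levels. It was -0.564 (permutation adjusted p = 0.139) with median centring and residuals together, an alternative chosen after seeing the data. There rho was -0.703 (permutation adjusted p = 0.0206), so r and rho differed in whether they passed. The cause was not tested. In the runs on residuals the permutation p-values tend to be too small, because the shuffling ignored the centring within groups. Slc6a5, Glra1 and 1 Gabbr1 probe set were too near background for folds.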
